A study of Mus musculus with 8 samples.

Results

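The immunoglobulin segment genes are the variable (V), diversity (D), joining (J) and constant (C) genes of the heavy, kappa and lambda chain loci. The members were chosen by their names and by measured values, as the rows of the deposited table whose symbol begins with Igh, Igk or Igl, whose gene name contains the word immunoglobulin, and which had at least 1 read in at least 2 of the 8 tumors. The rule chose 136 of the 27179 genes, out of 262 immunoglobulin rows. Of the others, 77 had no read in any tumor and 49 had reads in 1 tumor. Upper and lower case were ignored, since the names of Ighe and Ighg3 are spelled with a capital letter. Ighmbp2, which encodes a helicase first found as a protein that binds the immunoglobulin mu switch region, passed by its name alone. It is not a segment, so it was set aside, and the 135 remaining genes are called members here. They hold 8 C, 1 D, 4 J and 53 V genes of the heavy locus, 1 C, 4 J and 58 V genes of the kappa locus, and 3 C and 3 V genes of the lambda locus.

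The rule used the reads of all 8 tumors without regard to group, but a gene read only in the group where it is high passes it through that group. Of the 135 members, 74 had no read in any cxC26 scr tumor and 0 had no read in any cxC26 IL6KOs1 tumor. Counts and medians over the members are therefore descriptions and carry no weight as tests. The same holds for each of those 74 members alone, since the choice fixed its direction: where an adjusted p is printed for a member with no read in cxC26 scr, it is a description. A member read in only 1 cxC26 scr tumor also needed a knockout tumor to pass, so its p-values and calls are descriptions too. Of the immunoglobulin rows just inside the rule, 38 were read in 2 tumors, with 2 to 438 reads in all and a median of 7.5. The 49 just outside, read in 1 tumor, had 1 to 90 reads and a median of 2.0.

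RNA was sequenced from 8 subcutaneous tumors of male CD2F1 mice, a cross of the BALB/c and DBA/2 strains. Both groups carried C26, a mouse colon carcinoma line, in its cachexia-inducing form cxC26. The cxC26 scr group (n = 4) had cells given a scrambled guide RNA, and the cxC26 IL6KOs1 group (n = 4) had cells of subclone 1 of an Il6 knockout, so the knockout is represented by a single clone. The study's methods give no harvest time or implanted cell number for the sequenced tumors. Where CD2F1 mice with this subclone reached cachexia, more cells had been implanted than in the controls, and the tumors had grown for longer. Genotype, cell dose and tumor age therefore cannot be told apart here. The tumors held 14158989 to 17048062 reads on genes. As a check of the labels, reads of Il6 numbered 356, 326, 376 and 438 in cxC26 scr against 64, 56, 86 and 59 in cxC26 IL6KOs1, a log2 difference of -2.45 (SE 0.166, limma adjusted p 8.2e-07). The carcinoma label was checked against 5 epithelial genes. Krt18, an epithelial keratin, had 21 to 30 reads in cxC26 scr and 140 to 282 in cxC26 IL6KOs1, Epcam, an epithelial surface protein, had 0 to 14 reads in each tumor, and 3 of the 5 were called higher in cxC26 IL6KOs1.

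An antibody is built of paired heavy and light chains. In a developing B cell, recombination joins a V, a D and a J segment of the heavy locus and a V and a J segment of the kappa or lambda locus, and RNA splicing attaches the constant region. The heavy constant gene sets the isotype: B cells begin with Ighm and Ighd, and class switching replaces them by Ighg3, Ighg1, Ighg2b, Ighg2c, Ighe or Igha, which encode IgG3, IgG1, IgG2b, IgG2c, IgE and IgA. B cells carry a small amount of this RNA, while plasma cells, the cells that secrete antibody, carry a great deal. The tumor cells themselves are of epithelial origin by their carcinoma label. In bulk RNA, fewer cells of a type and less RNA per cell cannot be told apart.

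The genes that carried most of the reads are shown first by their reference sequence, read from the GENCODE M21 transcripts on GRCm38. The reference is the C57BL/6J genome, whose immunoglobulin loci differ from those of the BALB/c and DBA/2 parents of these mice, so a read was assigned to the closest reference segment and the tumor transcripts can differ from these letters. The last 60 bases of the 5 heavy and the 5 kappa V segments with most reads, and of the lambda V segment with most reads, are given 5′ to 3′, with capitals on the last TAT, TAC, TTT or TTC that is followed by TGT or TGC. In rearranged genes this stretch, which encodes the conserved cysteine of the V domain, opens the hypervariable joint with D or J. The motif was found in this window, on the coding strand, in 111 of the 114 V members (97.4%).
Ighv5-17 (chr12:113859149-113859208, minus strand): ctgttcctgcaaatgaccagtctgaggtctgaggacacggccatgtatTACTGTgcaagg
Ighv2-2 (chr12:113588267-113588326, minus strand): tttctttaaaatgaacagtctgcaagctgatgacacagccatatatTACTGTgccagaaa
Ighv1-14 (chr12:114646572-114646631, minus strand): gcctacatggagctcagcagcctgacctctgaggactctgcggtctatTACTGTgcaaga
Ighv8-8 (chr12:115294062-115294121, minus strand): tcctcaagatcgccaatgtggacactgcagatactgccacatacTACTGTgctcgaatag
Ighv9-1 (chr12:114093928-114093987, minus strand): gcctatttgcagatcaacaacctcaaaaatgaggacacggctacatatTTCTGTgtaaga
Igkv3-10 (chr6:70573171-70573230, plus strand): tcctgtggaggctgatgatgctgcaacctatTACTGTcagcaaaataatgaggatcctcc
Igkv3-5 (chr6:70663836-70663895, plus strand): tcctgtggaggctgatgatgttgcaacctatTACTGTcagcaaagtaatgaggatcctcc
Igkv3-7 (chr6:70607977-70608036, plus strand): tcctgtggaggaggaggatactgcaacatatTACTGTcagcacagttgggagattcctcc
Igkv6-17 (chr6:70371934-70371993, plus strand): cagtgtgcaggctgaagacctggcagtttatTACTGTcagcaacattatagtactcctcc
Igkv4-80 (chr6:69016558-69016617, minus strand): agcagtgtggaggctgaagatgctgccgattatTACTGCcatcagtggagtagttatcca
Iglv1 (chr16:19085017-19085076, minus strand): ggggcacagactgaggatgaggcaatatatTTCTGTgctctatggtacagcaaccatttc

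Igkv3-10 and Igkv3-5 differ at 2 of these 60 bases, C21T and A45G (the base of Igkv3-10, its position counted from 1 at the 5′ end of the printed stretch, the base of Igkv3-5), and their whole coding sequences are 98.3% identical. Such likeness bears on every V segment count. A stretch of 150 bases, the length of 1 read, was shared exactly with another annotated V segment by 11 of the 114 V members, which held 3466 of the 11910 V reads (29.1%). Igkv3-10 with Igkv3-5, Igkv6-17 with Igkv6-25 and Ighv2-2 with Ighv2-4 are such pairs. How reads that fit several segments were counted is not given in the sources used here, so the split between these pairs is uncertain.

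The gamma constant genes differ most visibly in the hinge, a flexible stretch between the antigen-binding arms and the tail whose cysteines join the heavy chains. Their hinge exons are shown because these genes divide most of the heavy constant reads, with capitals on the in-frame cysteine codons, of which there are 4 in Ighg1, 4 in Ighg2b, 3 in Ighg2c and 1 in Ighg3.
Ighg1 (chr12:113329844-113329882, minus strand): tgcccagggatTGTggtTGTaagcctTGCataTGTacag
Ighg2b (chr12:113307261-113307326, minus strand): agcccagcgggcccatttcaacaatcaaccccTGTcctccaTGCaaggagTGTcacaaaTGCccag
Ighg2c (chr12:113288263-113288325, minus strand): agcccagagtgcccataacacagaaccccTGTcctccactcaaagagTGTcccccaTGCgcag
Ighg3 (chr12:113360529-113360576, minus strand): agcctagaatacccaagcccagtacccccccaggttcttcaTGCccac
Over the whole coding sequence Ighg1 is 77.0% identical to Ighg2b, 77.2% to Ighg2c and 76.5% to Ighg3, while Ighg2b and Ighg2c are 87.6% identical. These genes are thus less alike than the closest V pairs.

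The first comparison asked how much immunoglobulin RNA the tumors of the 2 groups held. Summed over the 135 members, the cxC26 scr tumors had 69, 279, 96 and 111 reads, and the cxC26 IL6KOs1 tumors had 39510, 1415, 8483 and 1423. As CPM, which are reads scaled to a common effective library size, these are 4.14, 17.2, 6.75 and 7.21 against 2432, 102, 538 and 98.2. Every cxC26 IL6KOs1 tumor was above every cxC26 scr tumor, and the lowest of them exceeded the highest cxC26 scr tumor 5.70-fold. The mean log2 CPM of the sum was 2.95 ± 0.85 (SD, n = 4) in cxC26 scr and 8.403 ± 2.21 (SD, n = 4) in cxC26 IL6KOs1, a difference of 5.46 on the log2 scale, or 43.9-fold. This sum is a description and was not tested.

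The spread within the knockout group was wide. The highest of the cxC26 IL6KOs1 tumors, tumor 1, held 24.8 times the CPM of the lowest, against 4.17 times between the extremes of cxC26 scr. Tumor 1 had the highest CPM of all 8 tumors for 96 of the 135 members. Without tumor 1 the log2 difference of the immunoglobulin total was 4.51. Even in tumor 1 the members took 0.243% of the gene reads. Ighmbp2, the helicase gene matched by name, had 281, 242, 264 and 285 reads in cxC26 scr and 315, 256, 239 and 278 in cxC26 IL6KOs1, with a log2 difference of 0.07 (SE 0.126, limma adjusted p 0.74).

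**Figure D1:**
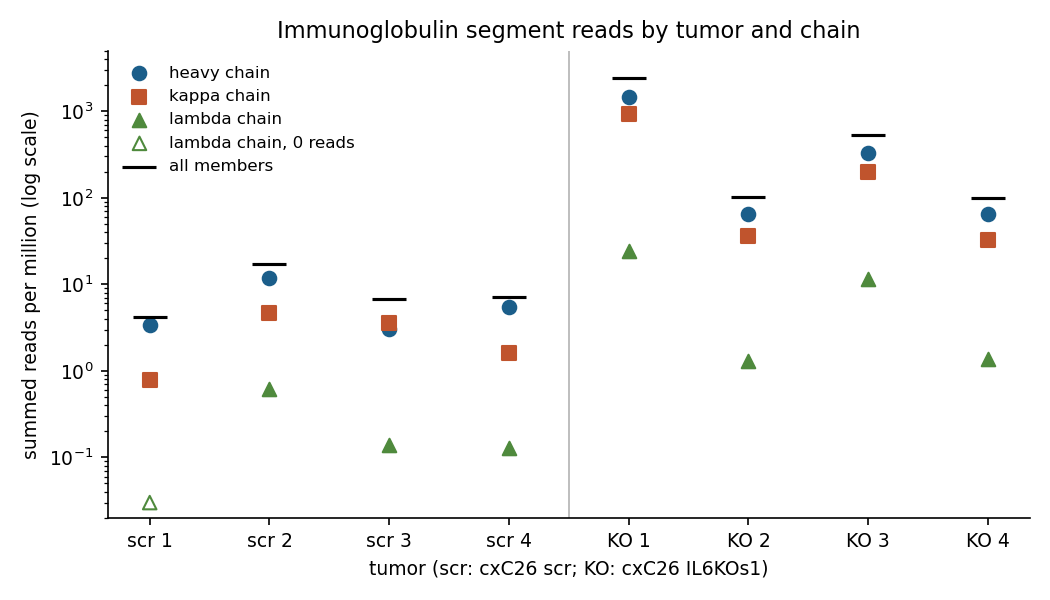
Summed CPM of the members (log scale) in each tumor, by chain, with scr 1 to 4 for the cxC26 scr tumors and KO 1 to 4 for the cxC26 IL6KOs1 tumors. Bars mark the sum of all members, which was 4.14 to 17.2 in cxC26 scr and 98.2 to 2432 in cxC26 IL6KOs1, and the open triangle marks a tumor with no lambda read.

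The same held within each locus. The heavy locus had 56 to 193 reads in cxC26 scr and 899 to 24000 in the cxC26 IL6KOs1 tumors, a log2 difference of 5.38 in summed CPM. The kappa locus had 13 to 76 reads and 465 to 15118, a log2 difference of 5.78. The lambda locus had 0 to 10 reads and 18 to 392, a log2 difference of 4.96. In each locus the knockout tumors followed the same order as in the plot of CPM by chain, with tumor 1 highest, tumor 3 next, and tumors 2 and 4 close to each other. The ratio of heavy to light constant reads was 2.44, 3.21, 2.57 and 3.13 in the cxC26 IL6KOs1 tumors. Kappa V reads per Igkc read were 0.728, 0.953, 0.786 and 0.762 in the same tumors, and heavy V reads per heavy constant read were 0.113, 0.0911, 0.126 and 0.109.

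Gene by gene, limma on the log2 CPM of the 19110 genes with a read in at least 2 tumors called 43 of the 135 members higher in cxC26 IL6KOs1 at an adjusted p under 0.05 (31.9%), against 14.0% of all genes tested. No member was called lower, and none had an unadjusted p under 0.05 in that direction, where 14.1% of all genes were called lower. The 43 were 7 of 8 heavy C genes, 15 of 53 heavy V, 1 of 1 kappa C, 2 of 4 kappa J, 15 of 58 kappa V, 2 of 3 lambda C and 1 of 3 lambda V. Of them, 24 had no read in any cxC26 scr tumor. The median log2 difference was 2.27 over the members and 0.03 over all genes tested. That scale understates low genes. As pooled CPM, with groups at 0 set to 3 reads, the 130 members with a value had a median ratio of 12.9. Pooling also gives most weight to the tumor with most reads, and cxC26 IL6KOs1 tumor 1 had the highest CPM for 96 of the 135 members. The ratio is thus a different measure and not a corrected log2 difference. The CPM of every cxC26 IL6KOs1 tumor lay above that of every cxC26 scr tumor for 20 of the 135 members (14.8%), against 14.0% of all genes tested, a share near the background.

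The count of calls moved with the settings, from 11 of 135 on log2(CPM + 1) and 20 with voom weights to 51 without cxC26 IL6KOs1 tumor 4. Leaving out cxC26 scr tumor 1 or 4 gave 27 each. Igha, Ighm, Igkv4-74, Igkv6-17, Igkv6-32 and Iglv1 were called under each alternative that tested all the members. Igkv4-74 and Igkv6-32 are named for this count and were chosen after their values were seen. Igkv4-74 had no read in any cxC26 scr tumor and 32, 8, 13 and 2 in the cxC26 IL6KOs1 tumors. Its direction was therefore fixed by the choice, and its calls are descriptions. Igkv6-17 and Igkv6-32 were each read in only 1 cxC26 scr tumor, so their calls are descriptions as well.

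Among the constant genes, Ighg1, which encodes the IgG1 heavy chain, differed by most. It had 3, 5, 7 and 5 reads in cxC26 scr and 18300, 434, 3949 and 442 in the cxC26 IL6KOs1 tumors. The groups did not overlap, and the lowest knockout tumor exceeded the highest control 62.0-fold in CPM. The log2 difference was 8.56 (SE 0.895, limma adjusted p 2.4e-05; two-sided exact permutation p 0.0286 over the 4 against 4 tumors, the smallest this design allows). The call held under 15 of 16 alternatives, and with voom weights the adjusted p was 0.073. Over all 16 the adjusted p ran from 1.9e-06 to 0.073.

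Igkc, the constant region of the kappa light chain, had 9, 48, 21 and 16 reads against 8733, 254, 1732 and 261. Every knockout tumor was above every control. The log2 difference was 5.69 (SE 0.881, limma adjusted p 0.00044, exact permutation p 0.0286), and its adjusted p was above 0.05 only with voom weights (0.056).

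Ighm, the constant region of IgM, had 35, 163, 11 and 36 reads in cxC26 scr and 426, 246, 379 and 284 in cxC26 IL6KOs1. The groups did not overlap. Its log2 difference was 3.10 (SE 0.539, limma adjusted p 0.00096). Within the knockout group Ighm varied little, with a highest to lowest CPM ratio of 1.48 and an SD of 0.26 on the log2 scale, where Ighg1 had a ratio of 36.9 and an SD of 2.53. In cxC26 scr the order was turned, with ratios of 13.0 for Ighm and 2.74 for Ighg1. Ighd, the constant region of IgD, had 0, 2, 0 and 0 reads against 11, 3, 2 and 1. Its log2 difference was 2.28 (SE 0.757, limma adjusted p 0.039), and it was called under 5 of 15 alternatives. These calls are descriptions, since it was read in only 1 control tumor.

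The other gamma genes were higher too, with unequal patterns. Ighg2b had 1, 2, 4 and 2 reads against 1720, 5, 51 and 66, so that tumor 2 lay barely above the controls. Its log2 difference was 4.94 (SE 1.21, limma adjusted p 0.0082). Ighg2c had 0, 1, 5 and 4 reads against 708, 13, 102 and 19, a log2 difference of 5.04 (SE 1.09, limma adjusted p 0.0039). Ighg2c is the C57BL/6 gene, in whose place BALB/c mice carry Ighg2a, so its reads in these mice may come from that gene. Ighg3 did not pass the test. It had 0, 2, 2 and 0 reads against 31, 18, 1 and 0, with overlapping groups and a limma adjusted p of 0.22.

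Igha, the constant region of IgA, had 15, 2, 2 and 21 reads against 305, 100, 126 and 28, a log2 difference of 3.97 (SE 0.766, limma adjusted p 0.0019). All knockout tumors were above all controls, but tumor 4 only 1.42-fold above the highest control in CPM. Ighe, the constant region of IgE, had no read in cxC26 scr and 54, 4, 1 and 3 reads in cxC26 IL6KOs1. Pooled over the tumors and set against a floor of 3 reads for the controls, it was at least 21.4-fold higher, and its limma adjusted p was 0.0090, a description, since it entered through the knockout tumors alone. Most of its reads came from tumor 1.

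The lambda constant genes were read far less. Iglc1 had 0, 3, 1 and 0 reads against 68, 2, 54 and 2, a log2 difference of 3.58 (SE 1.09, limma adjusted p 0.026) with overlapping groups. Iglc3 had 0, 1, 0 and 0 against 12, 0, 6 and 4 (limma adjusted p 0.045, called under 3 of 15 alternatives), a description, since only 1 control tumor had a read. Iglc2 had 0, 3, 0 and 2 against 12, 0, 1 and 2 and did not pass the test (limma adjusted p 0.52). Iglc2 and Iglc3 are 96.2% identical over their coding sequence, so the split between them is uncertain.

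The second comparison concerned the isotypes. Each heavy constant gene was expressed as its share of the heavy constant reads per kb of exon, so that genes of different length can be set side by side. Ighm led in every cxC26 scr tumor, with 72.2%, 93.5%, 38.0% and 58.5% of this sum. Ighg1 led in every cxC26 IL6KOs1 tumor, with 81.8%, 46.7%, 81.5% and 45.7%, where its share in cxC26 scr was 4.50%, 2.09%, 17.6% and 5.91%. The groups did not overlap for Ighg1. For Ighm they did, since tumor 4 of the knockout group had 40.4% and tumor 3 of the control group 38.0%. As plain reads the Ighm shares did not overlap, with 35.5% at the lowest in cxC26 scr and 33.7% at the highest in cxC26 IL6KOs1.

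**Figure D2:**
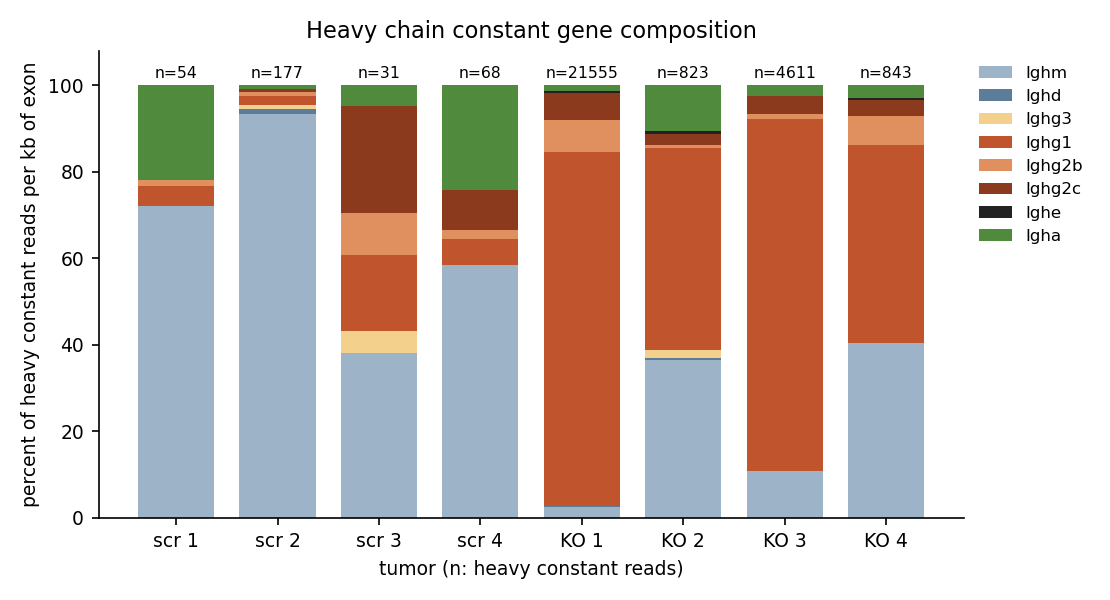
Share of each heavy constant gene in the heavy constant reads per kb of exon, in percent, by tumor, with scr for cxC26 scr and KO for cxC26 IL6KOs1 and the number of heavy constant reads above each bar. Ighm made up the largest part of the 4 cxC26 scr bars, and Ighg1 that of the 4 cxC26 IL6KOs1 bars, where it took 45.7% to 81.8%.

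The depth behind these shares was very unequal. The cxC26 scr tumors had 54, 177, 31 and 68 heavy constant reads, against 21555, 823, 4611 and 843. As plain reads, the 4 gamma genes together made 7.41% (95% exact binomial interval 2.06 to 17.9), 5.65% (2.74 to 10.1), 58.1% (39.1 to 75.5) and 16.2% (8.36 to 27.1) of the heavy constant reads in cxC26 scr. In cxC26 IL6KOs1 they made 96.3% (96.0 to 96.6), 57.1% (53.6 to 60.5), 89.0% (88.0 to 89.9) and 62.5% (59.1 to 65.8). These intervals cover counting error only. The shares overlapped between the groups through control tumor 3, which had 18 gamma reads.

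The knockout tumors also differed in the weight of IgG. Tumors 1 and 3, with most reads, had 48.7 and 10.8 gamma reads for each Ighm read, and tumors 2 and 4 had 1.91 and 1.86. The minor isotypes differed between tumors as well. Ighg2b took 7.44% of the heavy constant reads per kb in tumor 1 and 6.61% in tumor 4, but 0.52% in tumor 2 and 1.02% in tumor 3. Igha took 10.5% in tumor 2 and 1.32% to 2.81% in the other tumors. Ighg2c lay between 2.74% and 6.19% in all 4.

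Kappa dominated the light chains in every tumor. The lambda constant genes made 92 of 8825 light constant reads in knockout tumor 1 (1.04%, exact interval 0.841 to 1.28), 2 of 256 in tumor 2 (0.781%, 0.0948 to 2.79), 61 of 1793 in tumor 3 (3.40%, 2.61 to 4.35) and 8 of 269 in tumor 4 (2.97%, 1.29 to 5.78). The intervals of tumors 1 and 3 did not overlap, and that of tumor 2 met both. In cxC26 scr the lambda reads were 0 of 9 (interval 0 to 33.6), 7 of 55 (12.7%, 5.27 to 24.5), 1 of 22 (4.55%, 0.115 to 22.8) and 2 of 18 (11.1%, 1.38 to 34.7). The interval of control tumor 2 lay above those of knockout tumors 1, 2 and 3, while those of control tumors 1 and 3 met the intervals of all 4 knockout tumors. With the reads of each group pooled, Igkc made 90.4% (83.0 to 95.3) of 104 light constant reads in cxC26 scr and 98.5% (98.3 to 98.8) of 11143 in cxC26 IL6KOs1, which compares pooled reads and not tumors. Over tumors the lambda shares of the groups overlapped.

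The third comparison concerned which V segments were used. In cxC26 scr the heavy V segments had 2, 16, 10 and 14 reads and the kappa V segments 4, 28, 30 and 9, too few for shares. Of the 114 V members, 67 had no read in that group. In cxC26 IL6KOs1 the heavy V reads numbered 2432, 75, 582 and 92, and the kappa V reads 6361, 242, 1362 and 199. Over all 114 V members, 17 were read in all 4 knockout tumors, 46 in 3, 47 in 2 and 4 in 1.

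Ighv5-17 was the heavy V segment with most reads. It had 0, 1, 0 and 0 reads in cxC26 scr and 745, 18, 185 and 10 in cxC26 IL6KOs1, a log2 difference of 6.82 (SE 1.06, limma adjusted p 0.00044, exact permutation p 0.0286). Read in only 1 control tumor, it passed the rule through the knockout tumors, so these p-values are descriptions. It was the leading heavy segment in knockout tumors 1, 2 and 3, with 30.6% (exact interval 28.8 to 32.5), 24.0% (14.9 to 35.3) and 31.8% (28.0 to 35.7) of the heavy V reads, and had 10.9% (5.34 to 19.1) in tumor 4. The lead in tumor 2 was narrow, with 18 reads against 13 of Ighv1-18 (17.3%, 9.57 to 27.8), named after its values were seen. With voom weights the limma adjusted p of Ighv5-17 was 0.062, the highest of 15 alternatives, and the lowest was 0.00019.

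The next heavy segments were carried by fewer tumors. Ighv2-2 had 265, 0, 6 and 1 reads in the knockout tumors and 0, 2, 0 and 0 in the controls (limma adjusted p 0.14). Ighv1-14, which GENCODE annotates as a pseudogene, had 167, 2, 4 and 0 reads and none in the controls (limma adjusted p 0.058). Ighv8-8 had 151, 0, 3 and 0, with 1 read in control tumor 3 (limma adjusted p 0.24). Ighv9-1 had 79, 2, 66 and 5 reads with none in the controls, which fixed its direction (log2 difference 5.09, SE 0.948, limma adjusted p 0.0015 as a description). In tumor 4 the leading heavy segment was Ighv1-67, named after its values were seen, with 33 of 92 heavy V reads (35.9%, 26.1 to 46.5). It had 114 reads in tumor 1 and none in tumors 2 and 3.

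Of the 5 kappa segments with most reads, Igkv6-17 varied least between the knockout tumors, with an SD of 1.73 on the log2 scale. It had 0, 0, 2 and 0 reads in cxC26 scr and 569, 64, 122 and 29 in cxC26 IL6KOs1, a log2 difference of 7.22 (SE 0.813, limma adjusted p 4.4e-05, exact permutation p 0.0286), and it was called under all 16 alternatives run. Read in only 1 control tumor, it passed the rule through the knockout tumors, so its p-values and calls are descriptions. It led the kappa segments in tumor 2 with 26.4% (21.0 to 32.5) and shared the lead in tumor 4 with 14.6% (9.98 to 20.3).

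As counted, the near-identical pair printed above divided the tumors, though the split of reads between its members is uncertain. Igkv3-10 had 1186, 55, 18 and 1 reads in the knockout tumors and Igkv3-5 had 322, 0, 306 and 10, with no read of either in cxC26 scr. Igkv3-10 led tumor 1 with 18.6% (17.7 to 19.6) of kappa V reads, and Igkv3-5 led tumor 3 with 22.5% (20.3 to 24.8). Pooled against a floor of 3 control reads, Igkv3-10 was at least 435-fold and Igkv3-5 at least 220-fold higher. Both entered through the knockout tumors alone, so their limma adjusted p of 0.0052 and 0.014 are descriptions. These rose above 0.05 on log2(CPM + 1) and with voom weights, and for Igkv3-5 also with no filter and with no variance trend. Over the alternatives the limma adjusted p reached 0.13 for Igkv3-10 and 0.15 for Igkv3-5.

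Igkv3-7 had 0, 2, 7 and 0 reads in cxC26 scr and 457, 12, 38 and 5 in cxC26 IL6KOs1, a log2 difference of 4.55 (SE 1.20, limma adjusted p 0.013) with overlapping groups. Igkv4-80 rested on a single tumor, with 435, 0, 3 and 0 reads and none in the controls, and did not pass the test (limma adjusted p 0.17). Among the lambda segments, Iglv1 had 0, 3, 1 and 0 reads against 287, 14, 119 and 11, a log2 difference of 5.56 (SE 0.961, limma adjusted p 0.00091), with all knockout tumors above all controls. Iglv2, 96.9% identical to Iglv1, had 3, 2, 0 and 0 reads in the knockout tumors, and Iglv3 had 10, 0, 1 and 1. Neither had a read in cxC26 scr, and neither passed the test (limma adjusted p 0.22 and 0.094).

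**Figure D3:**
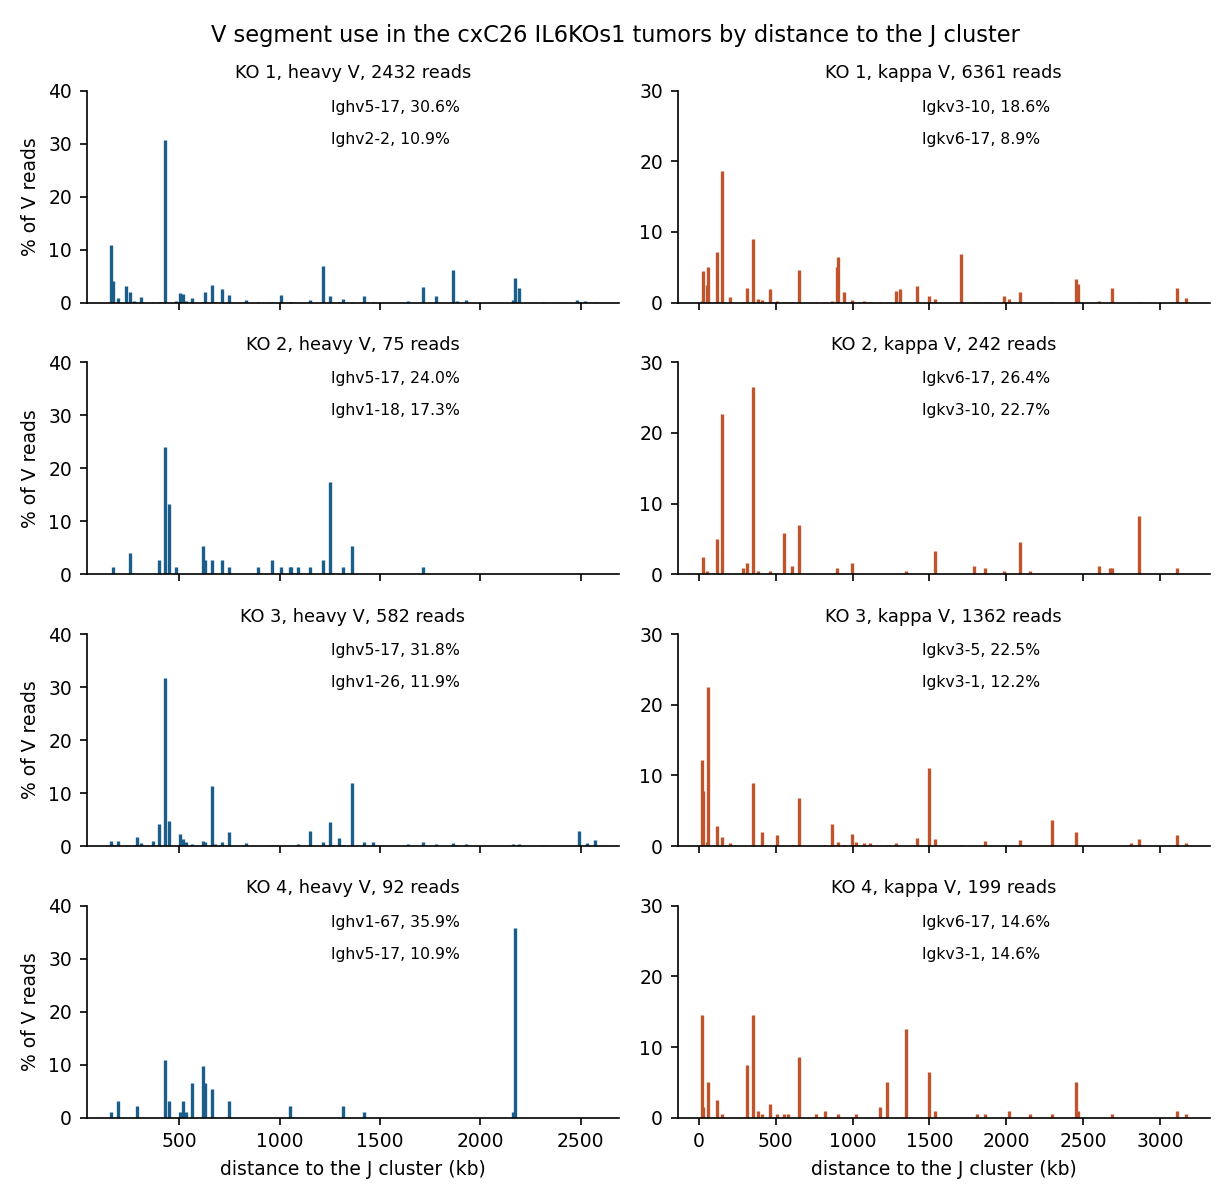
Share of each V segment in the heavy (left) or kappa (right) V reads of each cxC26 IL6KOs1 tumor, in percent, against its distance in kb from the J cluster of its locus; each bar is 1 member and the 2 leading segments are named. Ighv5-17 leads on the heavy side in tumors 1, 2 and 3, narrowly in tumor 2, while the leading kappa segment is Igkv3-10 in tumor 1, Igkv3-5 in tumor 3, and Igkv6-17 in tumor 2 and, level with Igkv3-1, in tumor 4.

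By family, segments of Igkv3 and Igkv6, with 7 members each among the 58 kappa V members, took 56.8%, 67.4%, 65.0% and 56.8% of the kappa V reads in the knockout tumors. Igkv3 was the larger of them in tumors 1 and 3, with 38.7% and 47.5%, and Igkv6 in tumors 2 and 4, with 36.8% and 32.7%. Igkv4, the family with most members (13), had 14.6%, 3.72%, 15.3% and 27.6%. On the heavy side the 7 Ighv5 members took 39.8%, 28.0%, 38.0% and 14.1%, and the 22 Ighv1 members 24.6%, 30.7%, 30.2% and 40.2%. The share of reads from the segments up to the median distance from the J cluster was 68.8%, 66.7%, 68.6% and 57.6% for the heavy locus (27 of 53 segments) and 71.3%, 76.9%, 74.4% and 62.3% for kappa (29 of 58).

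The use was spread over many segments in each knockout tumor. The 5 leading segments of each tumor took 59.3%, 65.3%, 64.1% and 69.6% of its heavy V reads and 48.1%, 70.2%, 62.6% and 57.8% of its kappa V reads. To compare tumors of different depth, the number of segments expected in a draw of equal size was computed. In 75 heavy V reads it was 21.9, 23.0, 21.8 and 16.96 segments, and in 199 kappa V reads 30.4, 24.7, 28.4 and 33.0. Among the members, tumor 1, with most immunoglobulin RNA, lay within the range of the other tumors at equal depth. The rule bears on this unequally, since it removed segments read in a single tumor. Tumor 1 had reads on 164 immunoglobulin genes of the whole table and on 127 members, and tumor 3 on 121 and 112. Tumors 2 and 4 lost none, with 63 and 69 in both counts. The numbers therefore cannot show whether tumor 1 read as many segments as the others.

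The tumors shared part of their repertoire. Taking for each segment the smaller of its shares in a pair of tumors and summing, the overlap of kappa V use ran from 29.6% (tumors 2 and 3) to 51.7% (tumors 3 and 4). For heavy V use it ran from 28.8% (tumors 2 and 4) to 51.4% (tumors 2 and 3). Of the 47 kappa segments read in tumor 3, 43 were also read in tumor 1, which is 91.5% of the former and 81.1% of the 53 read in the latter. Segments read in only 1 tumor had been removed by the rule, so these overlaps are descriptions of the members. Among the knockout tumors the removal took reads from tumors 1 and 3 alone. It could thus raise the overlaps that involve tumor 1 or 3, but not that of tumors 2 and 4. Tumors 2 and 4 had few V reads, so their shares are known less well.

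J segments are very short and were read rarely. The 2 with most reads in the heavy and in the kappa locus are printed whole (Igkj1 and Igkj2 both had 10 reads, and Igkj1 was taken by the order of the symbols), with capitals on the stretch TGGGG or TTCGG, 4 further bases and GG, which encodes the conserved start of the last framework strand.
Ighj4 (chr12:113428514-113428567, minus strand): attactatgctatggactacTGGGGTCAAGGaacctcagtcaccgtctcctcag
Ighj1 (chr12:113429781-113429833, minus strand): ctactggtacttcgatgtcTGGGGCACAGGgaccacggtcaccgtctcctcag
Igkj5 (chr6:70723886-70723923, plus strand): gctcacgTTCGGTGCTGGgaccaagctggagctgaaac
Igkj1 (chr6:70722562-70722599, plus strand): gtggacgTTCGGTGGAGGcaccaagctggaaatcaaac
The 4 kappa J members had 0 reads in cxC26 scr and 24, 2, 8 and 5 in cxC26 IL6KOs1. Igkj5 had 9, 2, 2 and 0 of these (limma adjusted p 0.047, called under 1 of 15 alternatives), Igkj1 had 5, 0, 4 and 1 (limma adjusted p 0.052), and Igkj2, the other kappa J segment called, had 5, 0, 2 and 3 (limma adjusted p 0.039). With no read in cxC26 scr, these calls are descriptions. The 4 heavy J members had 0, 0, 1 and 2 reads in cxC26 scr and 13, 1, 7 and 2 in cxC26 IL6KOs1. Ighj4 and Ighj1 did not pass the test (limma adjusted p 0.17 and 0.44). At this depth the use of J segments cannot be compared between tumors.

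The genes of B cells and plasma cells were then set beside the members. Jchain, which encodes the chain that links IgM and IgA units and is made by antibody-secreting cells, had 1, 15, 8 and 9 reads in cxC26 scr and 957, 84, 264 and 62 in cxC26 IL6KOs1. The log2 difference was 4.91 (SE 0.810, limma adjusted p 0.00068), all knockout tumors were above all controls, and the knockout tumors stood in the same order as for the immunoglobulin sum. Mzb1, a chaperone of the secretory pathway in antibody-secreting cells, had 2, 0, 4 and 3 reads against 93, 8, 23 and 13 (log2 difference 3.46, SE 0.798, limma adjusted p 0.0059).

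Of the 12 genes in the plasma cell list, 6 were called higher (Jchain, Mzb1, Irf4, Derl3, Pou2af1 and Fkbp11), 1 lower and 5 neither, and the median log2 difference was 0.91 against 0.03 over all genes tested. The summed CPM of this list was 694 to 836 in cxC26 scr and 676 to 728 in cxC26 IL6KOs1, so by that measure the groups overlapped. The gene called lower was Sdc1, which encodes syndecan, a plasma cell surface marker that epithelial cells also carry, with 1583 to 1778 reads in cxC26 scr and 801 to 1019 in cxC26 IL6KOs1 (log2 difference -0.78, limma adjusted p 4.6e-05). Xbp1 and Prdm1, transcription factors of plasma cells that other cells use as well, had log2 differences of 0.11 (limma adjusted p 0.44) and -0.86 (limma adjusted p 0.068). Prdm1 stood at 442 reads in knockout tumor 1 and 106 to 133 in the others, against 283 to 352 in the controls. Tnfrsf17, the receptor BCMA of plasma cells, had 7 to 9 reads in cxC26 scr and 8 to 13 in cxC26 IL6KOs1 (limma adjusted p 0.52).

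**Figure D4:**
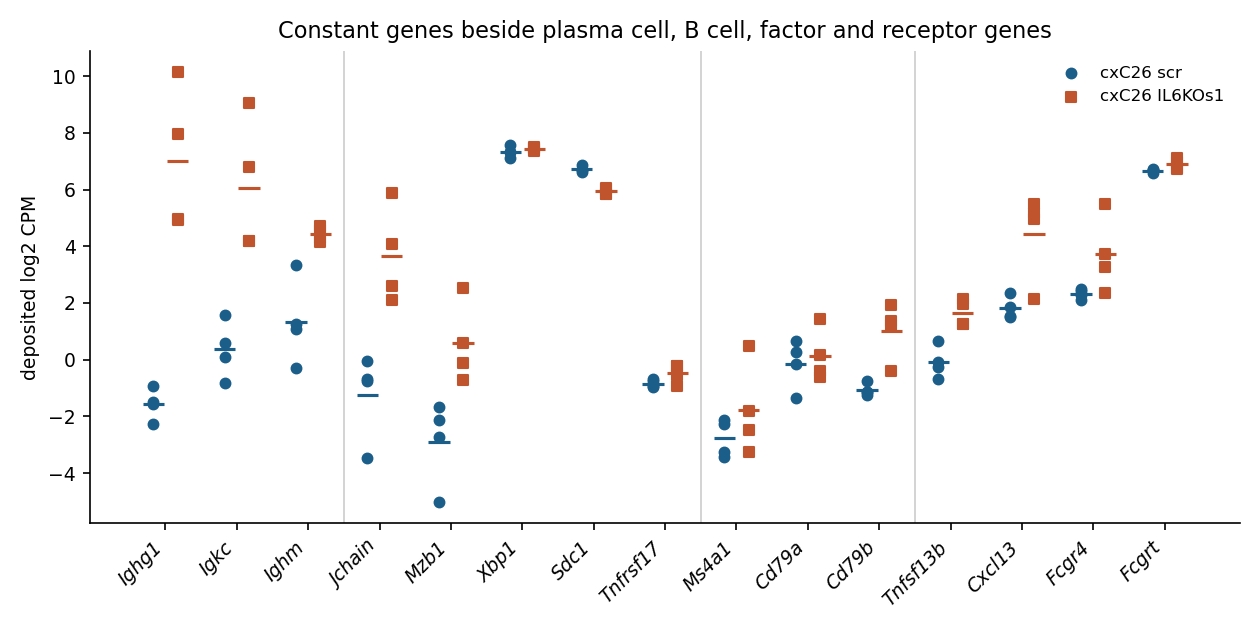
Deposited log2 CPM of 3 constant genes, 5 plasma cell genes, 3 B cell genes and 4 genes for factors and receptors in each tumor (circles, cxC26 scr; squares, cxC26 IL6KOs1; lines, group means, n = 4 each). Ighg1, Igkc and Jchain separate the groups widely, while Xbp1, Tnfrsf17, Ms4a1 and Cd79a overlap.

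Of the 13 genes in the B cell list, 1 was called higher, 1 lower and 11 neither, with a median log2 difference of 0.29. The surface marker Ms4a1, which encodes CD20, had 3, 1, 1 and 3 reads in cxC26 scr and 22, 2, 4 and 1 in cxC26 IL6KOs1 (limma adjusted p 0.36). Of the B cell receptor subunits, Cd79b was called higher, with 7, 9, 6 and 6 reads against 62, 10, 40 and 33 (log2 difference 2.10, SE 0.469, limma adjusted p 0.0049). Its partner Cd79a was not, with 6, 14, 22 and 18 against 43, 10, 17 and 9 (limma adjusted p 0.74). The gene called lower was the complement receptor Cr2, with 3 to 11 reads in cxC26 scr and 0 to 5 in cxC26 IL6KOs1 (limma adjusted p 0.039). The summed CPM of the list was 5.27 to 6.24 in cxC26 scr and 4.55 to 14.3 in cxC26 IL6KOs1, so the groups overlapped. The immunoglobulin sum was 0.784, 2.79, 1.25 and 1.16 times this B cell sum in cxC26 scr and 170, 22.5, 63.8 and 12.6 times in cxC26 IL6KOs1.

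Genes of B cell precursors were read rarely or not at all. Rag1, which cuts the segments for recombination, and Rag2 and Igll1, which mark precursors, had 0 reads in every tumor, and of the 2 genes of the precursor list that were tested neither was called. Of the 7 genes in the germinal centre list, 0 were called higher by limma, and S1pr2, a receptor that other cells also carry, was called lower (log2 difference -0.43, limma adjusted p 0.013). Of the genes tested in the lymph node stroma list, only Cxcl13 was called. Ccl19, a chemokine of lymph node stroma, had 0 reads in every tumor, Ccl21a had 2 reads in control tumor 1 and 0 in the others, and Glycam1, a marker of lymph node vessels, had 0 to 3 reads in each tumor.

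Among survival and switch factors, Tnfsf13b, which encodes BAFF, a survival factor of B cells, had 10, 13, 13 and 24 reads in cxC26 scr and 71, 33, 37 and 56 in cxC26 IL6KOs1, with no overlap (log2 difference 1.74, SE 0.357, limma adjusted p 0.0028). Cxcl13, the chemokine that attracts B cells, had 47, 47, 51 and 78 against 510, 61, 712 and 518 (log2 difference 2.63, SE 0.559, limma adjusted p 0.0036). Its knockout tumor 2 fell among the controls, and its order over the tumors was not that of the immunoglobulin sum. Tgfb1 was called lower (log2 difference -0.53, limma adjusted p 0.011). Of the 11 genes of this list that were tested, 2 were called higher and 1 lower. Il4, a cytokine that directs switching to IgG1 and IgE, had 0 to 3 reads in each tumor.

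Of the 11 immunoglobulin receptor genes tested, 6 were called higher and 0 lower by limma, with a median log2 difference of 0.62. Fcgr4, an activating receptor for IgG, had 81, 69, 80 and 82 reads in cxC26 scr and 728, 71, 153 and 192 in cxC26 IL6KOs1 (log2 difference 1.39, SE 0.471, limma adjusted p 0.043). Tumor 2 lay within the control range, and the call was kept under 5 of 16 alternatives. Fcgr3 was called too (log2 difference 0.72, limma adjusted p 0.035, kept under 9 of 16 alternatives), and Fcgr2b, the inhibitory receptor, was not (log2 difference 0.33, limma adjusted p 0.37). Fcgrt, the neonatal receptor that protects IgG, had 1470 to 1685 reads against 1564 to 2197 (limma adjusted p 0.12). Pigr, the transporter of IgA and IgM, had 0 or 1 read in the controls and 0, 0, 0 and 4 in the knockout tumors.

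Several of these receptors are carried by macrophages, whose genes moved as well. All 5 macrophage genes were called higher, and their summed CPM was 302 to 362 in cxC26 scr and 579 to 1147 in cxC26 IL6KOs1. Of the 8 T cell genes, 7 were called higher, and their summed CPM was 2.32 to 4.82 in cxC26 scr and 11.3 to 21.8 in cxC26 IL6KOs1. The median log2 difference was 1.28 for the macrophage list and 2.74 for the T cell list. The part of these cells in the immunoglobulin result was not tested. The 34 T cell receptor segment genes detected in the same way had a median log2 difference of 0.87, and 6 of them were called higher (17.6%), near the 14.0% of all genes tested. Fibroblast and endothelial genes were not called, 0 of 5 by limma.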

How the data were processed

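RNA of 8 tumors (4 per group) was enriched for polyadenylated RNA and sequenced as paired reads by the study. The authors trimmed the reads with Trimmomatic, aligned them with HISAT2 to mm10 (GRCm38), counted them with featureCounts and deposited log2 CPM from limma-voom. Annotation, strand and multi-mapping settings are not given in the sources used here. The deposited log2 values hold offsets of 0.5 reads and 1 read of library size. Inverting them gave whole reads for 100% of values within 0.01. limma 3.58.1 in R 4.3.3 (lmFit, then eBayes with a trend, no covariates, all 8 tumors) was run on the log2 values of 19110 genes with a read in at least 2 tumors, with Benjamini-Hochberg adjustment over all of them and a threshold of 0.05. In simulated reads for this comparison (19324 genes tested), 198 of 200 genes changed by 2 on the log2 scale were recovered with 7 false calls, and 0 genes were called with no change. The simulation gave every gene the same relative spread and changed only genes above a floor of mean CPM. Of the 135 members, 35 had fewer than 10 reads over the 8 tumors, and Ighg1 had an SD of 2.53 on the log2 scale in cxC26 IL6KOs1. The simulation therefore does not show how well such members are recovered. For single genes an exact permutation test over the tumors, two-sided, was added (SciPy 1.17.1). Coordinates, exon lengths and sequences came from GENCODE M21, where 136 of 136 rows matched by symbol, and identities from global alignment (Biopython 1.88). Fold bounds use a floor of 3 reads over a group. Binomial intervals are exact, at 95%.

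The members and gene lists were chosen with earlier results of these data known. Named genes were every constant gene, the 5 V and 2 J segments with most reads in each locus, preset B lineage genes, and up to 3 genes of highest mean level from each list. Some of these genes are not reported here. Tumors are separate samples by their labels, and p-values measure the spread between these tumors. Their numbers do not pair them. Alternatives were other filters, normalizations, offsets, weights, the replicate block and leaving out each tumor.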

Additional observations from a re-analysis of the deposited data

Results flagged for a closer look

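In 133 groups of 4 tumors with reads in at least 3 of them, 12 held a tumor whose gap to its nearest neighbour exceeded Dixon's 95% limit for the range. Chance flags about 1 in 20 groups. Of these, 4 are shares of constant genes (percent of reads per kb). Igha stood at 10.5% of the heavy constant sum in cxC26 IL6KOs1 tumor 2, against 1.32% to 2.81% in the others, and Ighg3 at 2.00% in the same tumor, against 0% to 0.143%. Ighg2b stood at 9.73% in cxC26 scr tumor 3, from 4 reads, against 0.808% to 2.29%. Iglc1 stood at 3.51% of the light constant sum in cxC26 IL6KOs1 tumor 3, against 0.869% to 0.914%.

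The others are log2 CPM values of listed genes. In cxC26 IL6KOs1 tumor 1, Prdm1 was at 4.77 (others 2.94 to 3.08), Lck, a T cell kinase, at 2.51 (1.17 to 1.25) and Fcgr3 at 6.68 (5.54 to 5.65). Cxcl13 was at 2.15 in tumor 2 (4.97 to 5.50) and Il6 at 2.46 in tumor 3 (1.99 to 2.04). In cxC26 scr tumor 1, Tgfb1 was at 6.85 (6.37 to 6.42), Txndc5 at 8.90 (8.60 to 8.65) and Fcgrt at 6.58 (6.69 to 6.71).

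The 126 immunoglobulin rows outside the rule had 409 reads in cxC26 IL6KOs1 tumor 1 and 28 in tumor 3, against 0 to 2 in the cxC26 scr tumors.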

How the results depend on the processing

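The 43 calls among the members became 6 of the 6 members left by a filter of at least 1 CPM in at least 4 tumors, 23 with no filter, 11 on log2(CPM + 1), 20 with voom weights and 19 without a variance trend. Leaving out 1 tumor gave 27 (without cxC26 scr tumor 1 or 4) to 51 calls. Of all genes called higher and all genes called lower, counts stayed within 1.5 times of the main 2669 and 2700, but re-centring by the median, which moved the median log2 difference of all genes from 0.03 to -0.076, gave 1992 and 3648. With the tumor numbers as a replicate block, 38 members were called. Same-numbered tumors are different mice whose deviations correlated at -0.059, 0.057, 0.017 and -0.059, so the numbers were not taken as a pairing. The immunoglobulin total had log2 differences of 4.51 (without cxC26 IL6KOs1 tumor 1) to 6.05 when 1 tumor was left out, and 3.85 with Ighmbp2 added, a choice made after seeing the data, as was coding length in place of exon length for the shares. Over the named members and alternatives, 63 values lost a call, 5 gained one and 372 did neither, with no change of direction. Some listed genes that were not called changed sign, and the cause was not tested. Bcl6 was at 0.0087 with voom weights, the listed gene Ebf1 at -0.13 with quantile normalization and -0.075 with re-centring, and the listed gene Vpreb3 at -0.018 on log2(CPM + 1). Leaving out 1 tumor gave log2 differences of -0.18 to 0.16 for Bcl6, -0.14 to 0.56 for Cd79a, -0.23 to 0.20 for Col1a1, -0.62 to 0.044 for Dntt, -0.15 to 0.19 for Ebf1, -0.060 to 0.94 for Glycam1, -0.36 to 0.83 for Pigr and -0.14 to 0.85 for Vpreb3. With few reads in the cxC26 scr tumors, depth limits the shares of isotypes and segments there.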
